A study of Mus musculus with 14 samples.

Results

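The genes examined here are 10 markers and regulators of the trophectoderm, the outer epithelium of the blastocyst. They were chosen by name from the 54446 gene identifiers of the files: *Cdx2*, *Elf5*, *Eomes*, *Tead4*, *Gata3*, *Tfap2c*, *Krt8*, *Krt18*, *Krt7* and *Hand1*. Their RNA was measured by bulk RNA-seq in 14 libraries of E14, a line of mouse embryonic stem (ES) cells, grown without feeders in serum and LIF. Wild-type cells were collected at 0 h and after 24, 72 and 144 h with the mTOR inhibitor Ink128 (mTORi). *Tet1/2* double-knockout (DKO) cells, a line grown from single sorted cells after Cas9 deletion of *Tet1* and *Tet2*, were collected at 0, 24 and 72 h. Each of the 7 groups held 2 replicates. All groups share the E14 background and the same medium, and every 0 h group was without mTORi. The DKO line is a clone, so the deletion cannot be told apart from other differences of that clone.

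The first lineage choice of the mouse embryo separates the trophectoderm, which makes the placenta, from the inner cell mass, from which ES cells are derived. In outer cells TEAD4 with its coactivator YAP switches on *Cdx2* and *Gata3*. CDX2, EOMES, ELF5 and TFAP2C then hold the trophoblast state, the keratin pair KRT8 and KRT18 builds the filaments of the epithelium, and HAND1 acts later in giant cells. ES cells normally keep this programme low, but some of its genes, *Tfap2c* and *Tead4* among them, are also used in pluripotent cells.

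Values are given in TPM, a transcript abundance that sums to the same total in every library and is scaled for transcript length and so allows levels of different genes to be set side by side. Spike-in normalized TPM are the deposited TPM multiplied by 1 factor per library that stands for RNA added in known amount. The factors have ratios of small whole numbers, so they may be rounded. Normalized TPM are the scale of the tests unless plain TPM is named. A gene was called where limma gave an adjusted p below 0.05 on log2(TPM + 1), over 18232 genes with a mean of at least 1 normalized TPM. On this scale the median of all genes shifted in wild-type cells by −0.33 at 24 h, by −0.33 at 72 h and by −0.83 at 144 h, in DKO cells by −0.49 at 24 h and by −0.12 at 72 h, and by 0.29, 0.10 and 0.49 from wild type to DKO at 0, 24 and 72 h. *Tet2* RNA was lower in every DKO library (15.9 to 22.2 plain TPM) than in every wild-type library (96.0 to 143). *Tet1* overlapped (147 to 248 against 191 to 349 plain TPM), and gene-level TPM does not show which exons are left. The summed plain TPM of 6 markers of pluripotent cells was between 2193 and 2810 in every library, so the labelled cell type carried its markers, while that of the 10 trophectoderm genes was between 39.3 and 169.

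In these ES cells the trophectoderm genes did not sit at a common level. *Tfap2c*, *Krt18*, *Krt8* and *Tead4* averaged 42.2, 27.4, 23.9 and 23.4 normalized TPM over the 14 libraries. *Gata3* and *Eomes* followed at 7.28 and 6.39. *Hand1* (1.15) and *Cdx2* (1.06) were just inside the filter, and *Krt7* (0.881) was just outside it. *Hand1* passed only through its 0 h groups (means of 2.25 in wild type and 2.69 in DKO). *Cdx2* passed only with DKO at 72 h (1.95). The filter thus favoured a fall of *Hand1* from 0 h and a rise of *Cdx2* in DKO at 72 h. *Elf5*, which marks the trophoblast stem cell, averaged 0.0611 normalized TPM and was listed at 0 in 4 of 14 libraries. The 4 highest genes overlapped in their ranges over libraries, as did *Gata3* with *Eomes*, and *Cdx2*, *Hand1* and *Krt7* with each other. Thus 8 of the 10 genes were tested. Bulk RNA does not tell fewer cells of a type from less RNA per cell.

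**Figure D1:**
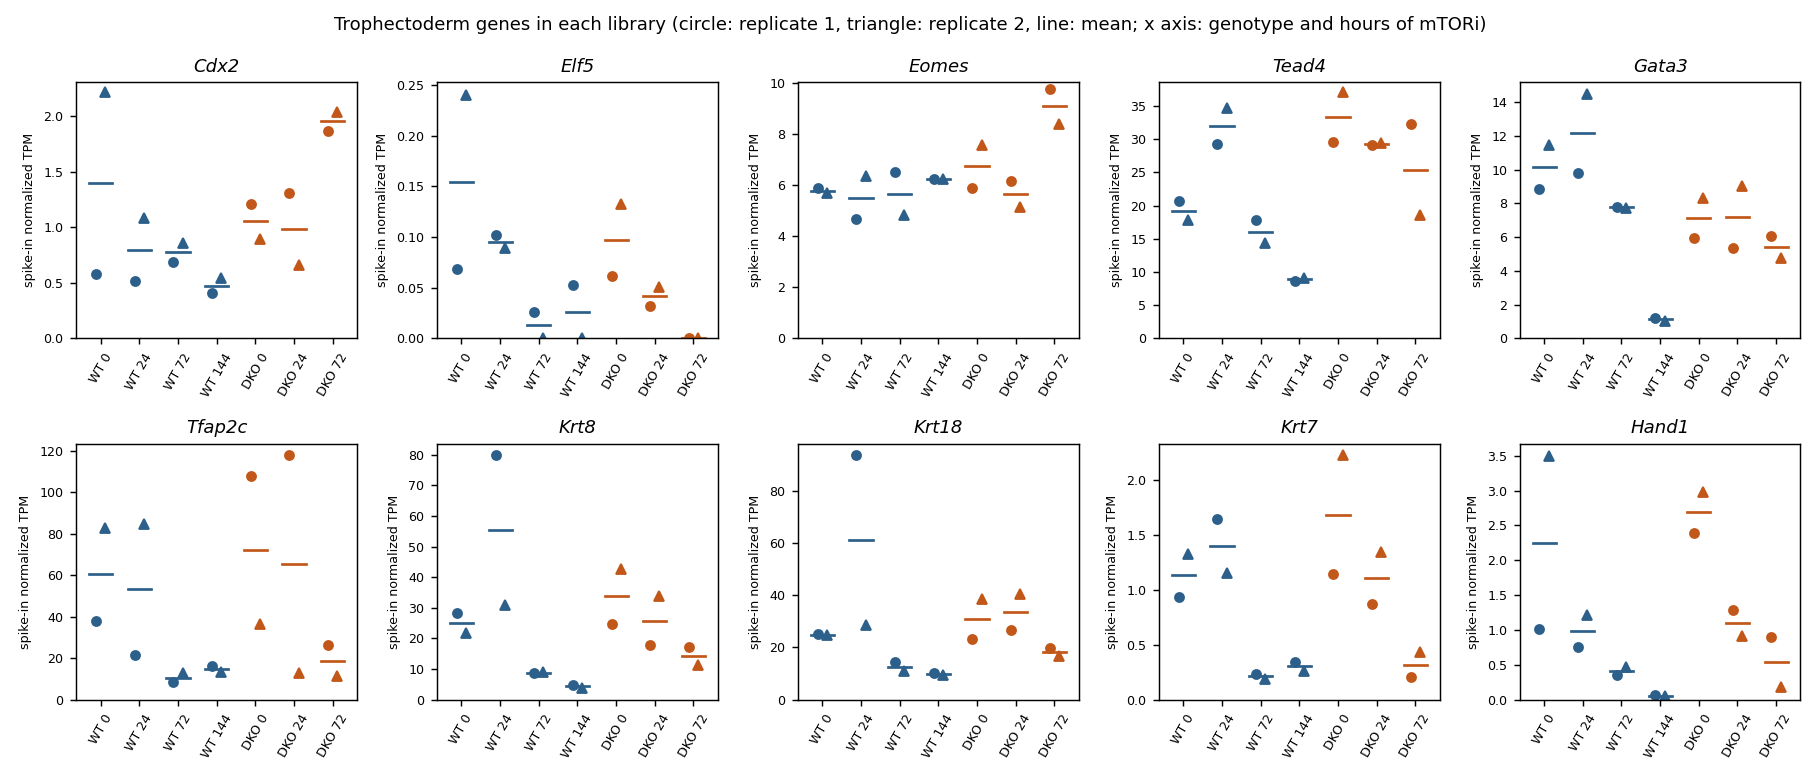
Spike-in normalized TPM (y axis, linear, own range for each gene) of the 10 genes in each library, by genotype and hours of mTORi (x axis). Points are libraries and lines are group means. *Gata3*, *Krt8*, *Krt18*, *Hand1* and *Tead4* lie lowest in wild-type cells at 144 h, and *Krt8*, *Krt18* and *Tfap2c* show replicates far apart at 24 h.

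*Krt8* and *Krt18* encode the 2 partners of 1 keratin filament and lie next to each other on chromosome 15, transcribed away from each other (*Krt8*, 101996698 to 102004482, minus strand, and *Krt18*, 102028180 to 102032027, plus strand, mm10). Because they moved together in these libraries, the stretches before their start sites are shown, together with that of *Gata3*, the gene with the most AP-2 letters. The sequences are from RefSeq (GRCm38.p6), which gave a window of 300 bases around the start for 7 of the 10 genes. The stretches of *Krt8* and *Krt18* lie before the start in both annotations. That of *Gata3* precedes the RefSeq start but lies inside the gene as annotated for the TPM values (9857078 to 9890034). Capitals mark matches, on either strand, to the letters AGATAA, a motif of the GATA family, in *Krt8* and to GCCNNNGGC, a motif of the AP-2 factors and so of TFAP2C, in *Krt18* and *Gata3*.
Krt8, chr15:102004483-102004592, minus strand: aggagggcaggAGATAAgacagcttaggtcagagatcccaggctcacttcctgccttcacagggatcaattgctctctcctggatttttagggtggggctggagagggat
Krt18, chr15:102027966-102028179, plus strand: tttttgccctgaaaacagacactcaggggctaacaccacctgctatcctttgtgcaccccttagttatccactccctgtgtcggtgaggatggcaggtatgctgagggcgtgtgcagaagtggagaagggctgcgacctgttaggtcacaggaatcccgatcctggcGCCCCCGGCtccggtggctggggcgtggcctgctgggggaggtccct
Gata3, chr2:9878601-9878850, minus strand: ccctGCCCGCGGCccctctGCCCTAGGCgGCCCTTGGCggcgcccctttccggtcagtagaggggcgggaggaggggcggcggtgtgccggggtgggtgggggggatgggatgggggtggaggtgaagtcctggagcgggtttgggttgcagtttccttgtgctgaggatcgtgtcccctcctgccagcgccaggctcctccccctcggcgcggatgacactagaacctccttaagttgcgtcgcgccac
The AP-2 letters were in the windows of *Gata3* (3 matches), *Krt7* (2), *Krt18* (1) and *Cdx2* (1), and in 16.6% of 32817 windows of all genes, which were not matched for base composition. AGATAA was in the window of *Krt8* (11.2% of all windows) and the TEAD letters GGAATG in 1 window of *Elf5* (14.7%). The E-box CACGTG (7.15%) and the ETS letters CGGAAG (16.9%) were in none of the 7. A match is a description of letters and no binding was measured.

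The first comparison asked how the genes changed in wild-type cells as mTORi went on. *Gata3* had the largest fall of the 8 on the log2(TPM + 1) scale, while with a pseudocount of 0.1 *Hand1* fell further (−3.68 against −3.04). *Gata3* was at 8.83 and 11.5 normalized TPM at 0 h, at 9.83 and 14.5 at 24 h, at 7.79 and 7.74 at 72 h, and at 1.22 and 1.05 at 144 h. Both 144 h libraries were thus far below the other 6 wild-type libraries, where 82.1% of all genes were below both 0 h libraries. The log2 change at 144 h was −2.38 (SE 0.35, adjusted p = 0.00011, limma). In plain TPM it was −1.46 and still called. No antisense or overlapping gene at this locus averaged more than 0.0877 plain TPM.

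*Krt8* went from 28.4 and 21.8 normalized TPM at 0 h to 8.67 and 8.99 at 72 h and 4.81 and 3.87 at 144 h. Both later groups were below both 0 h libraries (as were 55.3% of all genes at 72 h and 82.1% at 144 h), and the log2 change was −1.40 at 72 h (SE 0.41, adjusted p = 0.042) and −2.28 at 144 h (SE 0.41, adjusted p = 0.00047). Its partner *Krt18* was at 25.2 and 24.7 at 0 h, at 14.4 and 11.0 at 72 h, and at 10.3 and 9.32 at 144 h. It fell by 1.27 on the log2 scale at 144 h (SE 0.41, adjusted p = 0.017). In plain TPM *Krt18* had 11.9 and 11.7 at 0 h against 9.60 and 9.32 at 144 h, groups that did not overlap, as for 30% of all genes that were lower, but were not called (log2 change −0.29), and *Krt8* was not called either (−1.31, adjusted p = 0.11). A plain TPM fit with a replicate block, added after seeing the data, called *Krt8* lower at 144 h (15.6% of all genes). The call of *Krt8* at 72 h was lost without any 1 of the 0, 72 or 144 h wild-type libraries (adjusted p between 0.052 and 0.26).

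*Hand1*, a factor of giant cells, was at 1.01 and 3.50 normalized TPM at 0 h, at 0.355 and 0.464 at 72 h, and at 0.0656 and 0.0466 at 144 h. It was near 0 in both 144 h libraries, and the change was called there on the normalized scale (−1.51, SE 0.38, adjusted p = 0.0038) and in plain TPM (−0.91). *Hand1* passed the filter only through its high 0 h groups, which favours a fall. Without a filter it was called lower at 144 h as well, against 18.2% of all genes. *Tead4* had 20.7 and 17.8 at 0 h against 8.69 and 9.09 at 144 h (−1.03, SE 0.31, adjusted p = 0.012). In plain TPM the 144 h libraries, 8.12 and 9.09, lay close to the 0 h libraries, 9.81 and 8.41 (−0.07, not called).

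*Tfap2c* differed most between replicates. Its 0 h libraries held 37.8 and 83.0 normalized TPM, those at 72 h 8.45 and 12.9, and those at 144 h 16.1 and 13.5. All 4 later libraries were below both 0 h libraries, as for 55.3% of all genes at 72 h and 82.1% at 144 h. The change of −1.86 at 144 h was called (SE 0.73, adjusted p = 0.039), but not in plain TPM (−0.86, adjusted p = 0.42), nor without any 1 of 7 libraries, replicate 2 at 0 h and both replicates at 72 and 144 h in wild type and at 72 h in DKO (adjusted p between 0.051 and 0.22). At 72 h it was −2.32 (adjusted p = 0.053), and the plain TPM fit with a replicate block called *Tfap2c* lower there (15.2% of all genes).

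*Eomes*, a T-box factor of the trophoblast that also serves in mesendoderm, did not follow the others. It had 5.89 and 5.69 normalized TPM at 0 h and 6.25 and 6.23 at 144 h, a log2 change of 0.09 (adjusted p = 0.82) where 92.1% of all genes had a value below 0. In plain TPM it went from 2.79 and 2.69 to 5.84 and 6.23 and was called higher (0.91, adjusted p = 0.0060, with 15.6% of all genes called higher on that scale). *Gm33460*, on the opposite strand, overlaps *Eomes* and averaged 0.964 plain TPM over the 14 libraries, beside 3.72 for *Eomes*. The part of *Gm33460* in these values was not tested. *Cdx2*, the master regulator of the lineage, was at 0.579 and 2.22 normalized TPM at 0 h and at 0.407 and 0.545 at 144 h, and was not called (−0.61, adjusted p = 0.16). The 2 untested genes were low throughout. *Krt7* was at 0.940 and 1.33 at 0 h, at 0.235 and 0.190 at 72 h, and at 0.344 and 0.265 at 144 h, and *Elf5* did not exceed 0.241 in any library.

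In all, 6 of 8 genes were called lower at 144 h (*Gata3*, *Krt8*, *Hand1*, *Krt18*, *Tead4* and *Tfap2c*), against 50.5% of all genes, and 0 higher, against 0.461%. *Hand1* was among the 8 only through its high 0 h groups. At 72 h 1 of 8 was lower (*Krt8*), against 7.6%, and 0 higher, against 0.697%. The median change of the 8 was −1.39 at 144 h, beside −0.83 for all genes. Markers of the primitive endoderm, the other extra-embryonic lineage, were low at the same time, with 6 of 9 called lower, a median of −1.72, and a summed level of 46.5 to 54.8 plain TPM against 98.1 to 141 at 0 h. In plain TPM 1 of the 9 was called lower. The part of such cells in the fall of the trophectoderm genes was not tested. With the replicate number as a block within each genotype, 4 of 8 were lower at 72 h (*Krt8*, *Krt18*, *Tfap2c* and *Hand1*), against 25.4%. In plain TPM 2 of 8 were lower at 144 h (*Gata3* and *Hand1*), against 11.7%. Without replicate 2 of wild type at 0 h 2 of 8 were called at 144 h (*Gata3* and *Krt8*), and without either 144 h library 3. *Krt18* and *Tead4* lost their call without any 1 of the wild-type libraries of 0 or 144 h (adjusted p between 0.051 and 0.086), and *Cdx2* gained one without replicate 1 at 0 h (−1.13, adjusted p = 0.043).

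**Figure D2:**
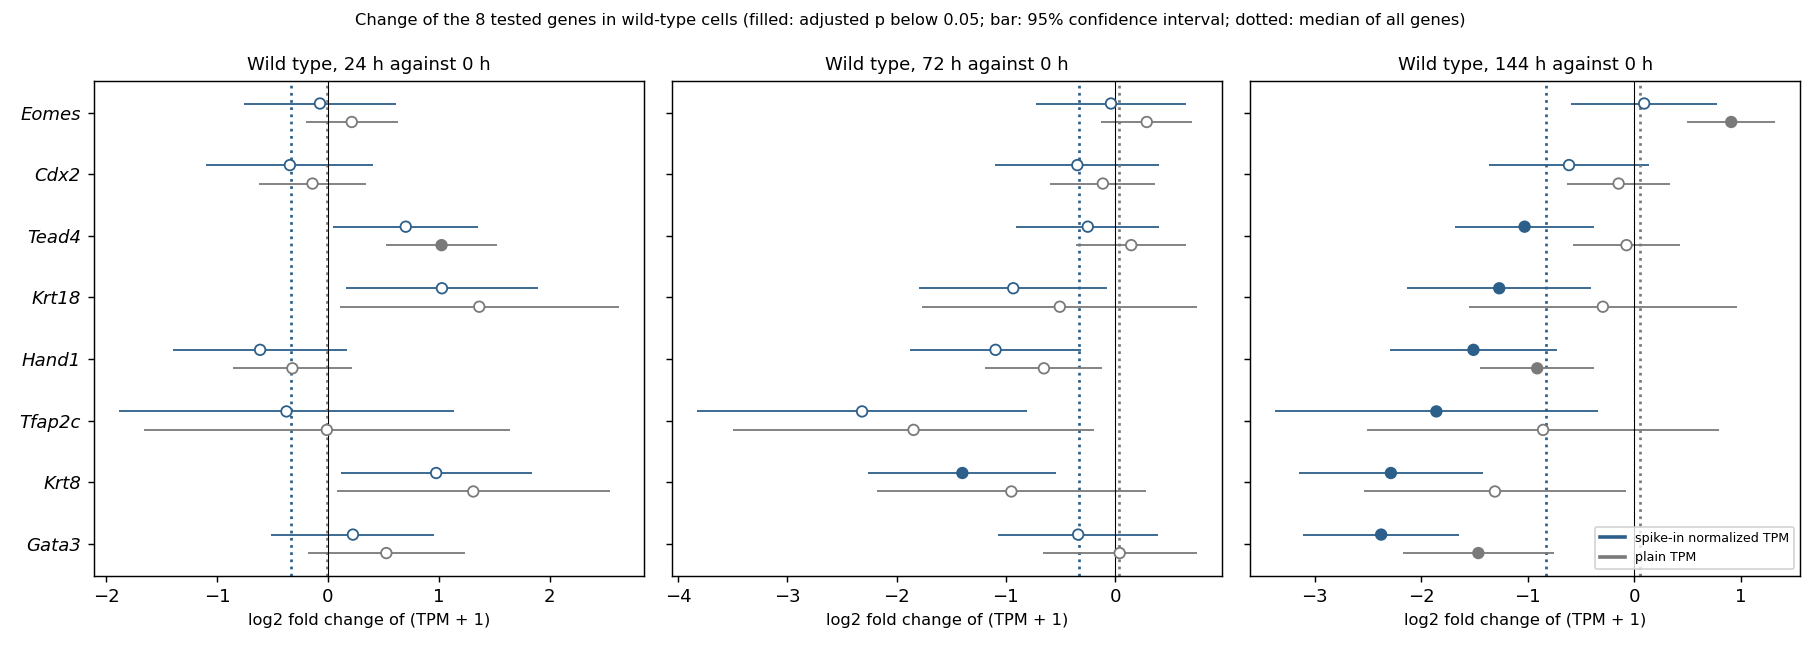
Log2 fold change of (TPM + 1) with its 95% confidence interval (x axis) for the 8 tested genes (rows) in wild-type cells at 24, 72 and 144 h against 0 h, on the spike-in normalized scale (blue) and in plain TPM (grey). Filled points were called, and dotted lines are the medians of all genes. At 144 h 6 genes are called on the normalized scale and *Gata3* and *Hand1* are called lower on both.

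At 24 h of mTORi *Krt8*, *Krt18* and *Tead4* had their highest wild-type levels. *Krt8* was at 79.8 and 31.1 normalized TPM and *Krt18* at 93.8 and 28.6. Every one of these values was above both 0 h libraries of its gene (12.1% of all genes lay higher without overlap), but replicate 1 stood far above replicate 2. *Tead4* was at 29.2 and 34.6, with its replicates close to each other. The log2 changes were 1.03 for *Krt18* (adjusted p = 0.12), 0.98 for *Krt8* (adjusted p = 0.13) and 0.70 for *Tead4* (adjusted p = 0.16), and limma called 0 of 8 genes, against 1.25% of all genes higher and 8.73% lower. These 3 had an unadjusted p below 0.05.

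The calls at 24 h depended on the fit. With the replicate block all 3 genes were called higher (adjusted p = 0.019, 0.027 and 0.041 in the same order), against 4.48% of all genes. In plain TPM *Tead4* was called (1.02, adjusted p = 0.0071), against 15.8% of all genes higher. Without replicate 2 at 24 h *Krt8* and *Krt18* were called (1.64 and 1.87), and without replicate 1 their changes were 0.31 and 0.19. Of the other TEAD genes, *Tead2* was called lower at 24 h (−1.32, adjusted p = 0.0082). *Tead1* (0.35) and *Tead3* (0.16) were not called on the normalized scale, where both overlapped 0 h. In plain TPM both lay above 0 h without overlap (*Tead1*, 122 and 123 against 65.6 and 84.5, and *Tead3*, 5.85 and 5.39 against 3.34 and 4.38), as *Tead4* and 32.4% of all genes did, and *Tead3* was called (0.45, adjusted p = 0.039).

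The primitive endoderm markers were high at the same time. Of the 9 markers 6 were called higher at 24 h in wild-type cells, against 1.25% of all genes, among them *Gata4* (2.27) and *Lama1* (2.14). All 9 were called in plain TPM (15.8% of all genes) and with the block (4.48%). Their summed level was 545 to 692 plain TPM at 24 h in wild type, above the 0 h level given before, and 191 to 208 against 102 to 131 in DKO. *Krt8* and *Krt18* are expressed in several epithelia, and the part of these cells in the keratin result was not tested. The summed level of 4 surface ectoderm markers did not exceed 0.722 plain TPM, and that of 6 fibroblast markers not 17.7.

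The DKO cells were compared with their own 0 h next. In the fit without a replicate block, none of the 8 genes was called at 24 h, against 18.7% of all genes called lower and 0.505% higher, or at 72 h, against 2.95% lower and 0.713% higher. At 24 h *Hand1* alone had an unadjusted p below 0.05, and at 72 h *Hand1*, *Krt8* and *Tfap2c*. *Hand1* was at 2.40 and 2.99 normalized TPM at 0 h, at 1.28 and 0.914 at 24 h, and at 0.902 and 0.188 at 72 h. Its groups did not overlap at either time, as for 46.3% of all genes at 24 h and 30.1% at 72 h that were lower (−0.82, adjusted p = 0.13, and −1.29, adjusted p = 0.062).

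*Krt8* in DKO cells was at 24.8 and 42.7 normalized TPM at 0 h, at 17.8 and 33.8 at 24 h, and at 17.2 and 11.3 at 72 h (−1.17 at 72 h, adjusted p = 0.12). *Krt18* was at 23.1 and 38.4 at 0 h, at 26.8 and 40.6 at 24 h, and at 20.0 and 16.7 at 72 h. *Tfap2c* was at 108 and 36.4 at 0 h, at 118 and 13.0 at 24 h, and at 26.3 and 11.3 at 72 h (−1.80 at 72 h, adjusted p = 0.17). All 3 genes had their 72 h libraries below both 0 h libraries, as did 30.1% of all genes, while in plain TPM *Krt18* overlapped (7.88 and 9.66 against 8.21 and 16.2). With the block, *Hand1* was called lower at 24 h (adjusted p = 0.046, against 38.1% of all genes), and *Hand1*, *Krt8* and *Tfap2c* at 72 h (adjusted p = 0.0088, 0.017 and 0.0042, against 13.2%).

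*Eomes* and *Cdx2* were at the upper end in DKO cells at 72 h, both without overlap with 0 h, as for 15.7% of all genes. *Eomes* had 9.78 and 8.40 normalized TPM there, against 5.91 and 7.59 at 0 h (0.39, adjusted p = 0.56), and was called in plain TPM (0.57, adjusted p = 0.048, against 17.2% of all genes higher), while *Hand1* was called lower in plain TPM (−0.74, against 9.06%). *Cdx2* had 1.87 and 2.04, against 1.21 and 0.900 at 0 h (0.53, adjusted p = 0.45). It passed the filter only with these DKO libraries of 72 h, so its rise there is not separate from the selection. It was also above both wild-type libraries at 72 h, 0.690 and 0.863 (0.73, adjusted p = 0.22), but 62.6% of all genes lay above wild type without overlap there. The response of *Cdx2* at 72 h differed between the genotypes by 0.87 (95% confidence interval −0.19 to 1.93), which was not called. It was 1.39 without replicate 1 of wild type at 0 h and 0.36 without replicate 2.

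The next comparison set DKO against wild type at the same time. None of the 8 genes was called at 0 h (against 0.0439% of all genes in either direction), at 24 h (0.0439%) or at 72 h (0.329%), or in the mean over the 3 times (8.86%). An unadjusted p below 0.05 was reached by *Tead4* at 0 h and in the mean, *Krt8* at 24 h, and *Gata3* in the mean. *Gata3* was the gene with the most regular difference. Its DKO libraries held 5.92 and 8.32 normalized TPM at 0 h, 5.36 and 9.04 at 24 h, then 6.07 and 4.75 at 72 h. At every one of the 3 times both lay below both wild-type libraries. In plain TPM they held 2.10 and 3.50, 2.40 and 6.66, and 2.39 and 2.75, against 4.18 and 5.44, 6.85 and 7.82, and 4.71 and 5.20 in wild type, again without overlap.

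Of all genes, 0.581% were lower in DKO without overlap at each of the 3 times on the normalized scale, and 4.6% in plain TPM, and *Gata3* was the only one of the 8 tested genes among them. The mean difference of *Gata3* was −0.54 (SE 0.20, adjusted p = 0.088), while the median of all genes was 0.29. In plain TPM it was −0.69 and called (adjusted p = 0.028, against 5.66% of all genes lower). It was also called on the normalized scale without replicate 2 of DKO at 24 h (−0.65, adjusted p = 0.013). At 144 h, where there are no DKO libraries, wild-type *Gata3* was below every DKO library.

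Over the 14 libraries the gene with the pattern most like *Gata3* was *Ctgf*, a target gene of YAP and TEAD (Pearson r = 0.932 of plain log2(TPM + 1), among 10929 genes). *Ctgf* was picked by this likeness over the same libraries, so a DKO difference like that of *Gata3* was partly built in. It had 14.1 to 30.1 plain TPM in the DKO libraries and 25.6 to 48.8 in wild type from 0 to 72 h, and 12.4 and 11.3 in wild type at 144 h. It was called lower in the DKO mean (−0.61, adjusted p = 0.024), as was *Cyr61*, another such target (−0.88, adjusted p = 0.014), while *Tead2* was called higher (0.71, adjusted p = 0.016). These 3 were the calls among 19 tested genes of the Hippo pathway and TEAD, whose median difference was 0.29, as that of all genes, of which 0.559% were called lower and 8.3% higher. In plain TPM 4 of the 19 were called lower and 1 higher, against 5.66% and 11.7% of all genes. *Tead4* itself was at 29.6 and 37.1 normalized TPM in DKO at 0 h, above wild type, with 10.5 and 15.6 against 9.81 and 8.41 in plain TPM. Of all genes, 52.9% lay above wild type without overlap at 0 h on the normalized scale and 24.4% in plain TPM. It was not called there (0.76, adjusted p = 0.55). In the mean over the 3 times the difference of *Tead4* was 0.41 (SE 0.18, adjusted p = 0.13), and it was called without replicate 2 of DKO at 72 h (0.54, adjusted p = 0.039).

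**Figure D3:**
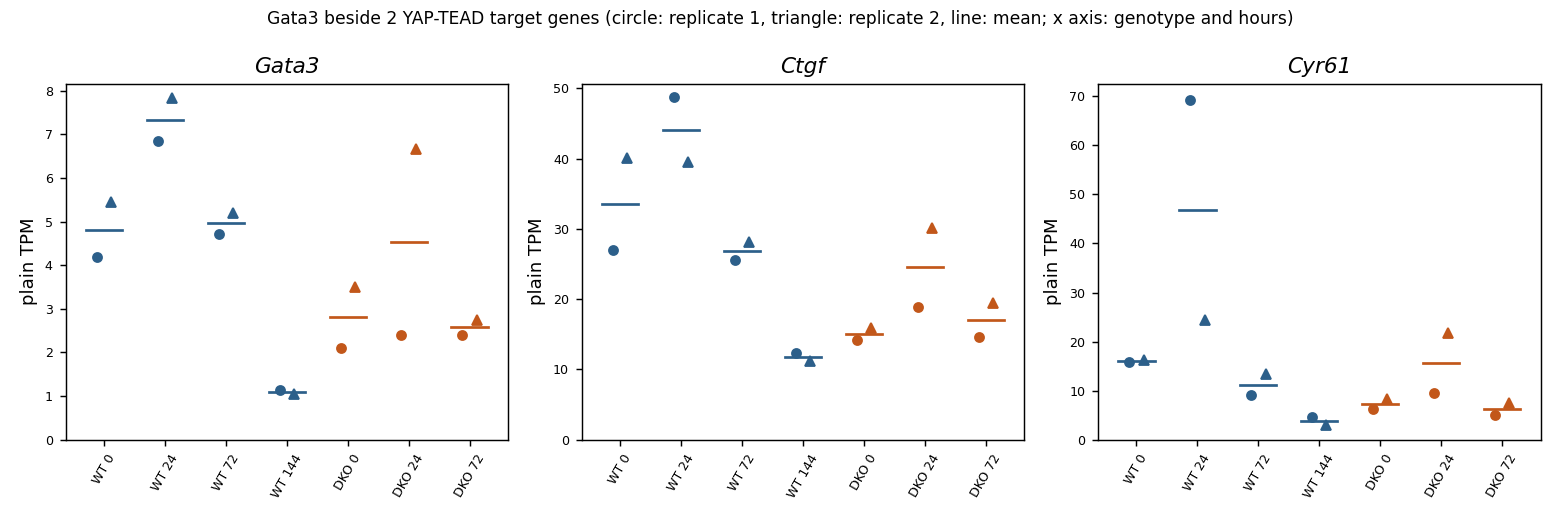
Plain TPM (y axis) of *Gata3* and of the YAP-TEAD target genes *Ctgf* and *Cyr61* in each library, by genotype and hours of mTORi (x axis). Points are libraries and lines are group means. *Gata3* lies lower in both DKO libraries than in both wild-type libraries at 0, 24 and 72 h, and all 3 genes are at 1.05 to 12.4 in wild type at 144 h.

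The responses of the 2 genotypes were compared directly. None of the 8 genes had a called difference of response at 24 or 72 h, against 0.00548% and 0% of all genes in either direction. With an unadjusted p below 0.05 there was *Krt8* at 24 h, where the DKO response was lower than the wild-type one by 1.37 on the log2 scale (95% confidence interval −2.59 to −0.15). It was −0.70 without replicate 1 of wild type at 24 h and −2.04 without replicate 2. At 24 h *Tead4* was at 29.1 and 29.4 in DKO, below both DKO libraries at 0 h, as for 46.3% of all genes, while both wild-type libraries at 24 h were above theirs, as for 12.1%. The difference was −0.88 (95% confidence interval −1.80 to 0.05). In plain TPM *Tead4* in DKO went from 10.5 and 15.6 to 13.0 and 21.6, a log2 change of 0.36 (adjusted p = 0.28) and so of the same sign as in wild type.

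The replicates of 1 group differed in an orderly way. In wild-type cells *Tfap2c* was higher in replicate 2 at 0, 24 and 72 h (by 1.09, 1.53 and 0.66 on the log2 scale of plain TPM). In DKO cells it was higher in replicate 1 at 0, 24 and 72 h (replicate 2 minus replicate 1 was −1.27, −2.34 and −0.59). *Krt8* and *Krt18* had the opposite sign to *Tfap2c* in all 4 groups of 0 and 24 h, although *Krt18* in wild type at 0 h differed by −0.02 only. In the other 3 groups *Krt8* had the same sign as *Tfap2c*, with differences between −0.17 and 0.17. At 24 h, *Krt8* differed by −1.67 in wild type and 1.53 in DKO, and *Krt18* by −2.02 and 1.25.

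Of the 9 markers of the primitive endoderm, 6 had the same sign as *Tfap2c* in at least 6 of the 7 groups, *Gata4* and *Gata6* among them. *Sox17* had it in 5, *Foxa2* in 3 and *Col4a1* in 2, and *Col4a1* had the sign of *Krt8* in 6. Equal numbers thus do not mark like libraries across the genotypes.

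**Figure D4:**
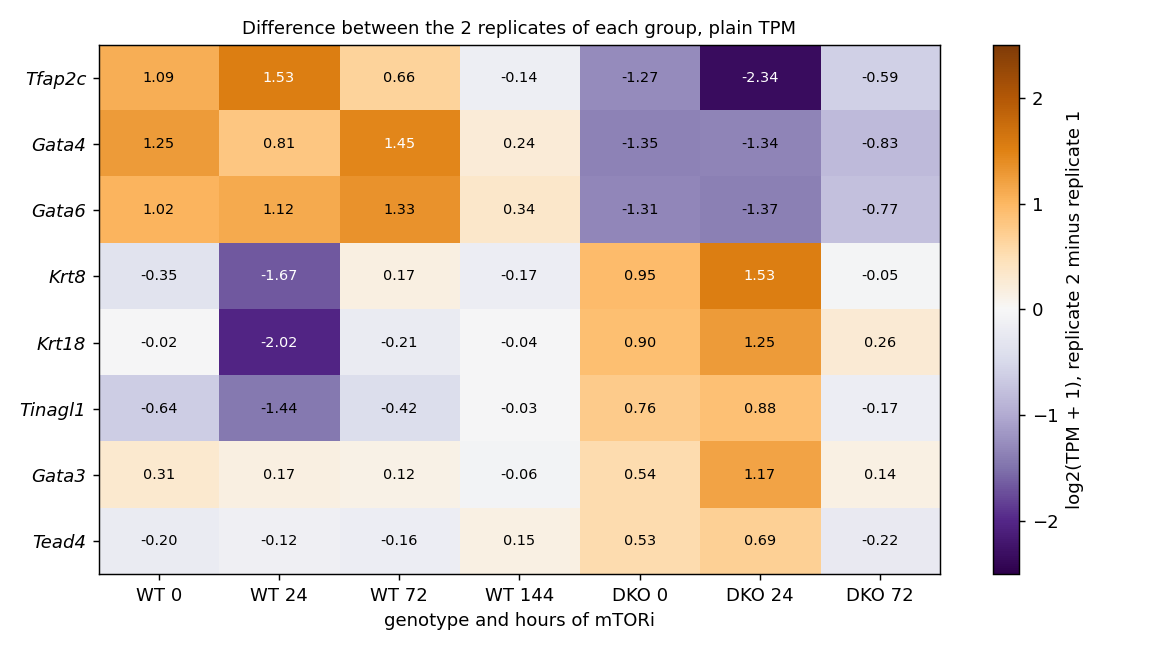
Difference between the 2 replicates of each group (replicate 2 minus replicate 1, log2(TPM + 1), plain TPM) for 8 genes (rows) in the 7 groups (columns, genotype and hours of mTORi). *Tfap2c*, *Gata4* and *Gata6* are positive in wild type at 0 to 72 h and negative in DKO, and *Krt8* and *Krt18* have the opposite sign at 0 and 24 h, with *Krt18* near 0 in wild type at 0 h.

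Likeness over the 14 libraries was described for the other genes too, as correlations over libraries that share groups and replicates. *Krt8* was most like *Tinagl1* (r = 0.953) and *Gprc5a* (0.932), and *Krt18* most like *Krt8* (0.920) and *Pik3cb* (0.888). *Tfap2c* was most like *Prpsap2* (0.920) and *Hpcal1* (0.905), *Tead4* like *Srp72* and *Plin2* (0.921 each), *Eomes* like *Drosha* (0.931) and *Ankrd49* (0.918), *Hand1* like *Pqlc3* (0.919) and *Eif1a* (0.915), and *Cdx2* like *Gm13147* (0.858) and *Zfp407* (0.818). The second gene for *Gata3* was *Fam43a* (0.917). Among the genes themselves *Krt8* and *Tead4* had r = 0.812, *Krt18* and *Tead4* 0.781, and *Eomes* and *Hand1* −0.751.

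Further genes of the same biology were counted from lists, of which that of giant cells and placenta also holds *Hand1*. At 144 h the counts called lower stand beside 50.5% of all genes. Of 19 tested genes of the Hippo pathway and TEAD, 13 were called lower in wild type at 144 h, with *Cyr61* (−2.84) and *Ctgf* (−2.41) the largest and a list median of −1.31. Of 14 other trophectoderm and trophoblast regulators 7 were lower at 144 h, a share like that of all genes, led by *Fgfr2* (−2.57), the receptor for FGF4, and *Gata2* (−1.74), with a median of −1.01. With the block within each genotype 11 of the 14 were lower, and 18 of the 19 Hippo and TEAD genes, against 66.3% of all genes. In the DKO mean *Sox21* was lower (−1.11) and *Spry4* higher (0.68), against 0.559% of all genes lower and 8.3% higher. In plain TPM 3 of the 14 were called lower there and 1 higher, against 5.66% and 11.7% of all genes. Of 16 genes of the blastocyst epithelium 7 were lower at 144 h, with the water channel *Aqp3* at −3.89 and a list median of −0.71, beside −0.83 for all genes. With the block 10 of the 16 were lower, against 66.3% of all genes. In the DKO mean the junction gene *Ocln* was higher (1.20) and *Cldn4* lower (−0.69), 1 of 16 in each direction. In plain TPM 4 of the 16 were called lower and 1 higher in the DKO mean, against 5.66% and 11.7% of all genes.

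Of 8 other keratin genes 3 passed the filter, and all 3 were lower at 144 h. At 24 h, where *Krt8* and *Krt18* had their highest levels, *Krt17* (−2.97) and *Krt42* (−1.50) were called lower, and *Krt19* was not called (0.41). In plain TPM *Krt17* alone was called of these 3, against 14.1% of all genes lower. Of 16 genes of giant cells and placenta 8 passed the filter, with 2 called lower at 24 h (*Phlda2*, −2.92, and *Mdfi*, −1.17), 5 at 72 h and 6 at 144 h in wild type, where *Rhox6* had −2.28 and *Hand1* was 1 of the 6. The shares of all genes called lower were 8.73%, 7.6% and 50.5% at these times. In DKO cells 3 were lower at 24 h and 3 at 72 h, against 18.7% and 2.95% of all genes. With the block the counts were 8 of 8 at 72 h (25.4% of all genes) and at 144 h (66.3%) in wild type, and 6 at 24 h (38.1%) and 8 at 72 h (13.2%) in DKO. In plain TPM 6 were lower in DKO at 72 h (9.06%). In the fit of all libraries without a block, no gene of these 5 lists was called higher in wild type at 24, 72 or 144 h on the normalized scale. With the block within each genotype 3 of the 19 Hippo and TEAD genes, 1 of the 14 other regulators and 2 of the 16 epithelium genes were called higher at 24 h, against 4.48% of all genes, and 5, 5 and 1 were called lower, against 25.7%. In plain TPM 3 of the 19 Hippo and TEAD genes were called higher and 4 lower at 24 h, 5 of the 14 other regulators higher and 1 lower, and 3 of the 16 epithelium genes higher and 1 lower, against 15.8% of all genes higher. The share of all genes called lower there was 14.1%. At 144 h in plain TPM the counts called lower were fewer than on the normalized scale, with 8 of 19 Hippo and TEAD genes, 1 of 14 other regulators, 1 of 16 epithelium genes, 1 of 3 keratins and 5 of 8 placental genes, *Hand1* among them, against 11.7% of all genes. In the first 3 of these lists 2, 3 and 2 genes were called higher, against 15.6%.

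Markers of other lineages that these cells could hold were read beside the 10 genes. Among 6 mesoderm and primitive streak markers, whose group of genes also uses *Eomes*, 2 passed the filter. Of these *Kdr* was called higher in DKO cells at 24 h (1.65, adjusted p = 0.027, against 0.505% of all genes) and *T* at 72 h (1.25, adjusted p = 0.043, against 0.713%). In plain TPM *T* was called and *Kdr* was not (adjusted p = 0.0505). In wild type the mean of *Kdr* was 3.40 normalized TPM at 0 h and 10.4 at 24 h, a change that was called with the block within each genotype and not without it on either scale. The other 4 were below the filter, and from 0 to 72 h in DKO cells the mean normalized TPM of *Evx1* went from 0.851 to 0.523, of *Gsc* from 0.743 to 0.241, of *Mixl1* from 2.10 to 1.82 and of *Mesp1* from 0.534 to 0.538. *Eomes* was highest in DKO cells at 72 h on the normalized scale and in wild type at 144 h in plain TPM. The summed level of the 6 was above 0 h at 24 and 72 h in both genotypes. In DKO cells it was 2.72 to 5.02 plain TPM at 0 h, 6.33 to 19.1 at 24 h and 7.74 to 9.24 at 72 h, and in wild type it was 3.94 to 4.19, 5.87 to 12.9 and 7.75 to 8.45. *Kdr* made up most of this sum at 24 and 72 h. It reached 17.1 plain TPM, while none of the other markers exceeded 1.72 in any library. The part of such cells in the level of *Eomes* was not tested. The 5 neural markers summed to 28.1 to 94.0 plain TPM and were lowest at 24 h in both genotypes.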

How the data were processed

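Cells were sorted in equal numbers, ERCC RNAs were added, and ribosomal RNA was depleted. The authors trimmed reads with cutadapt 2.4, aligned them with STAR 2.7.3a to mm10 and quantified genes with StringTie 2.0 (versions per the labels) on GENCODE VM19. The paper shows the sequencing depth in a figure that was not read here. The deposited values are TPM without read counts, so no counting error is given. They are not spike-in normalized, and the factor of each library was taken as the median ratio of the study's spike-in normalized table to the deposited TPM. How these factors were computed is not given in the sources used here, and their ratios of small whole numbers may come from rounding.

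All 14 libraries and 7 groups were fitted together with limma 3.58.1 (R 4.3.3) on log2(TPM + 1), a scale that understates changes of low genes. The filter was a mean of at least 1 and Benjamini-Hochberg adjustment ran over 18232 genes. The script was tested on simulated data. Replicate numbers pair libraries within a genotype, since the time points of a replicate were processed in parallel (correlation of replicate differences 0.0622 to 0.398 within genotype, below 0 in 10 of 12 pairs of groups between genotypes). The study states that experiments were repeated independently, while the labels do not name the culture of a replicate. The alternatives were plain TPM, median centring, other filters and pseudocounts, replicate blocks, fits of the compared groups alone and leaving out each library. The block within each genotype cannot test DKO against wild type.

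The members, lists and markers were chosen with earlier results of these data known. Named list genes are at most 3 called genes with the largest change in a comparison told. Genes of like pattern are the 2 with the highest Pearson r among genes with a mean of at least 5 plain TPM.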

Additional observations from a re-analysis of the deposited data

Results flagged for a closer look

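On the normalized scale the *Tead4* libraries at 24 h of mTORi lay on opposite sides of 0 h in the 2 genotypes. Both wild-type libraries were above their 0 h libraries and both DKO libraries were below theirs, and the DKO response minus the wild-type response was −0.88 on the log2 scale. The test of this difference did not pass in limma after adjustment (unadjusted p = 0.062, adjusted p between 0.396 and 1 over the alternatives). The DKO change was −0.18 (95% confidence interval −0.83 to 0.48), smaller in size than the −0.49 of the median gene. In plain TPM it was 0.36, the same sign as in wild type.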

How the results depend on the processing

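Of 29 changes of single trophectoderm genes given in the report, 7 were called. The direction was the same under the alternatives run for all but 2 of them. *Cdx2* at 144 h was 0.22 with median centring against −0.61, and *Tead4* in DKO at 24 h was −0.18 against 0.36 in plain TPM, with or without the block, and 0.28 with median centring. The genes called at 24 h in wild type were 0, against 1 in plain TPM and with median centring, 2 in a fit of the compared groups alone, 3 with the replicate block inside the genotypes and 3 with this block in plain TPM (added after seeing the data). At 72 h they were 1, against 0 in plain TPM, with median centring, without a filter and with a replicate block across all libraries, 2 with a filter of mean 5, 3 for the compared groups alone and 4 with the block within genotype. At 144 h they were 6, all lower, against 3 in plain TPM (2 lower and *Eomes* higher), 2 with median centring, and 4 without a filter, which ended the calls of *Krt18* and *Tfap2c*. In plain TPM with the block the genes called were 1 at 72 h (*Tfap2c*) and 4 at 144 h (3 lower and *Eomes* higher). In DKO cells they were 0 at 24 h, against 1 with the block within genotype, and 0 at 72 h, against 2 in plain TPM, 1 with median centring and for the compared groups alone, and 3 with the block on either scale. For DKO against wild type in the mean they were 0, against 1 in plain TPM and with median centring. The cause of these differences was not tested. Leaving out 1 library at a time gave 0 to 2 genes at 24 h, 0 to 3 at 72 h and 2 to 6 at 144 h in wild type, 0 to 1 at 24 h and 0 to 3 at 72 h in DKO, and 0 to 1 for the mean of DKO against wild type. No gene was called for DKO against wild type at a single time or for a difference of response under any of the alternatives. The block across all libraries also ended the call of *Tfap2c* at 144 h (adjusted p = 0.060), and on the normalized scale the blocks changed no other call of the 29 beside those counted above. A pseudocount of 0.1 changed no call. With 2 libraries a group, changes of low genes such as *Cdx2* and *Hand1* are the least certain.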
